A study of Arabidopsis thaliana with 24 samples.

Results

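The CIN-class TCP genes of Arabidopsis are 8 loci that encode transcription factors of the TCP family: TCP2 (AT4G18390), TCP3 (AT1G53230), TCP4 (AT3G15030), TCP10 (AT2G31070), TCP24 (AT1G30210), TCP5 (AT5G60970), TCP13 (AT3G02150) and TCP17 (AT5G08070). They were chosen by locus, and all 8 were measured among the 20777 loci of the expression table. Total RNA of wild-type Col-0 plants was hybridised to 24 Affymetrix ATH1 arrays, 3 for each of 8 groups, and every level below is a log2 value from the RMA summary method. The tissues were seedling shoots (the vegetative part, at growth stage 1.03) and leaf 3 taken while proliferating (day 9, leaf area 0.1 mm2), expanding (day 15, 7 mm2) or mature (day 22, 40 mm2). Plants of each tissue grew in vitro on medium with 25 mM mannitol, a sugar alcohol used as an osmotic agent, or on control medium with 0 mM. The labels give no harvest day for the seedlings. Per the series' design text the 3 replicates were independent experiments, and each sample pooled many plants and plates, which makes each array 1 replicate.

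TCP proteins carry a DNA-binding domain of basic helix-loop-helix type known only from the plant lineage. The class is named after CINCINNATA of snapdragon, and its members restrain cell division and promote differentiation in growing leaves, so that plants with reduced CIN-class activity form crinkled leaves with an overgrown margin. Transcripts of TCP2, TCP3, TCP4, TCP10 and TCP24 carry a site at which the microRNA miR319 pairs and directs their cleavage, whereas TCP5, TCP13 and TCP17 lack that site. Levels of miR319 and TCP protein amounts were not analysed here.

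The arrays of a group resembled each other closely, with a lowest within-group correlation of 0.99 over all loci, and no pair of arrays held identical values. Array medians lay between 5.91 and 6.16. The stage labels were set against marker genes. All 5 cell division markers fell in expanding relative to proliferating control leaves, with log2 differences of -4.09 for CYCB1;1 and -3.97 for KN, and both measured photosynthesis markers rose, PSBO1 by 1.34 and LHCA1 by 0.64. The ageing marker NAP averaged 4.67 in proliferating, 6.38 in expanding and 10.2 in mature control leaves. It was the only 1 of 4 ageing markers to pass in expanding relative to proliferating control leaves. In mature relative to expanding control leaves SEN1 (4.47) and SAG13 (0.90) also rose, and the SAG13 call was lost in 6 of 12 alternative settings. Of the root markers, 3 of 4 (PLT1, PLT2 and WER) lay in every group below 4.31, the 30th percentile of all values, taken here as the level of dim signal. Of the 4 shoot meristem markers 2 also stayed below it in all groups, among them WUS, which marks the stem cell niche of the shoot tip. The rest of that list did not. KNAT1, another marker of that list, was lower in expanding relative to proliferating control leaves (log2 difference -0.71, limma adjusted p = 0.00311). Of the 4 ageing markers 1 stayed below the dim level in all groups. RNA of a whole organ was measured, so a lower level from fewer expressing cells and a lower level per cell cannot be told apart.

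In leaf 3 of control plants the 8 genes followed different courses. TCP3 and TCP4 were highest in expanding leaves, TCP2, TCP5 and TCP17 were lowest there, TCP13 rose late, TCP24 fell early, and TCP10 moved least. In expanding relative to proliferating control leaves, 6 of the 8 genes passed the test, 2 higher and 4 lower (limma fitted on all 24 arrays, Benjamini-Hochberg adjusted p under 0.05), where 60.6% of all loci passed. In mature relative to expanding control leaves 6 of 8 passed, 4 higher and 2 lower, against 40.4% of all loci. In mature relative to proliferating control leaves 6 of 8 passed, 2 higher and 4 lower, against 67.7% of all loci. These 3 comparisons share control groups pairwise, so their values are set side by side.

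**Figure D1:**
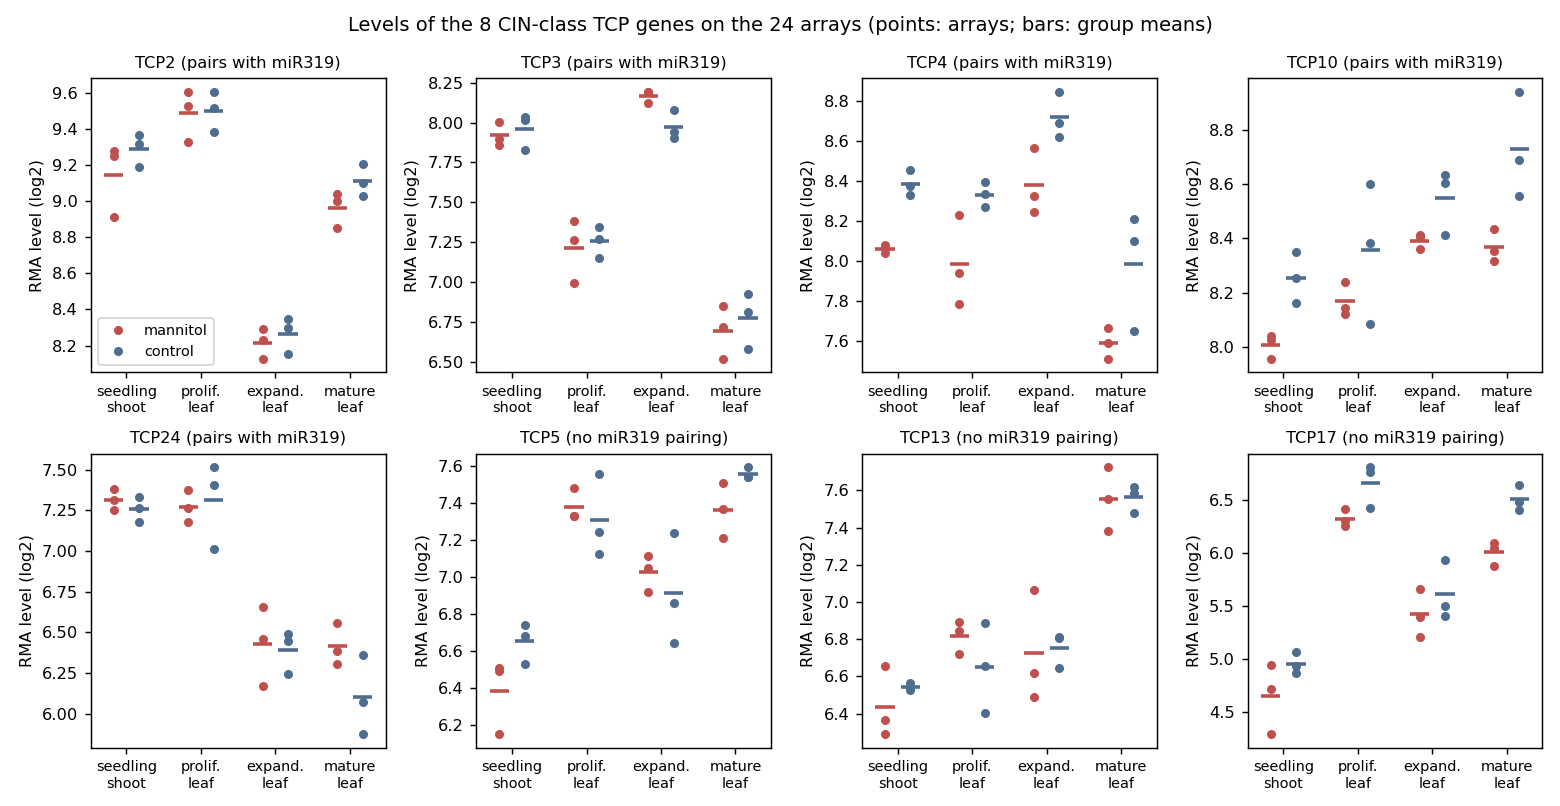
RMA level (log2, y axis, scaled separately for each gene) of the 8 genes in seedling shoots and in proliferating, expanding and mature leaf 3, with mannitol in red left of control in blue. Points are arrays and bars are means of 3 arrays. TCP4 lay lower on mannitol than on control medium at every stage, with 1 control array in mature leaves reaching down to the mannitol arrays, and TCP17 spanned the widest range.

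TCP3, which in Arabidopsis activates genes that keep boundary genes and auxin responses in check, had 7.15, 7.34 and 7.27 in proliferating, 7.94, 8.08 and 7.90 in expanding and 6.82, 6.58 and 6.93 in mature control leaves. The 3 stages did not overlap. It rose by 0.72 ± 0.11 (SE) in expanding relative to proliferating leaves (adjusted p = 3.64e-06) and was then 2.30-fold lower in mature relative to expanding leaves (adjusted p = 5.27e-09). On mannitol TCP3 had 7.27, 7.38 and 7.00 in proliferating, 8.19, 8.12 and 8.19 in expanding and 6.85, 6.52 and 6.72 in mature leaves. The steps there measured 0.95 and -1.47. The difference between the mannitol and control steps did not pass the test for either (adjusted p = 0.605 for the first and 0.401 for the second).

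TCP4, the member most studied for bringing forward the end of cell division in leaves, had 8.27, 8.39 and 8.34 in proliferating, 8.85, 8.69 and 8.62 in expanding and 8.10, 7.65 and 8.21 in mature control leaves. The expanding leaves stood above both other stages with no overlap, and the mature leaves were spread widest. The gene rose by 0.39 ± 0.12 (adjusted p = 0.00916) in expanding relative to proliferating leaves and was lower by 0.73 on the log2 scale in mature relative to expanding leaves (log2 difference -0.73, adjusted p = 3.8e-05). Its mature level was below its proliferating level by a log2 difference of -0.35 (adjusted p = 0.0165). That last call was lost without proliferating control replicate 2 or mature control replicate 2, in a fit of those 2 groups alone and with each array centred on its median, where adjusted p ranged from 0.00397 to 0.229 over all alternatives.

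TCP2, which binds the blue light receptor CRY1, had 9.52, 9.38 and 9.60 in proliferating, 8.35, 8.15 and 8.30 in expanding and 9.10, 9.03 and 9.21 in mature control leaves. All 3 expanding arrays lay below all arrays of both other stages. The level was 2.35-fold lower in expanding relative to proliferating leaves (log2 difference -1.23 ± 0.10, adjusted p = 2.98e-10) and rose again by 0.84 ± 0.10 in mature relative to expanding leaves (adjusted p = 5.02e-07). TCP2 stayed lower in mature than in proliferating leaves by a log2 difference of -0.39 (adjusted p = 0.00186). Centring each array on its median took that call away, with an adjusted p of 0.0669 against a lowest value of 0.000314 over the alternatives.

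TCP24, which has been linked to the thickening of secondary cell walls in anthers, had 7.02, 7.41 and 7.51 in proliferating, 6.45, 6.24 and 6.49 in expanding and 6.07, 6.36 and 5.87 in mature control leaves. The proliferating arrays stood above all later ones, whereas expanding and mature arrays overlapped. It fell by 0.92 on the log2 scale in expanding relative to proliferating leaves (adjusted p = 2.45e-06), and the further difference of -0.29 in mature leaves did not pass (adjusted p = 0.0925). Over the whole course it was 2.31-fold lower in mature than in proliferating leaves (adjusted p = 2.72e-08).

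TCP10 had 8.09, 8.60 and 8.38 in proliferating, 8.63, 8.41 and 8.60 in expanding and 8.94, 8.56 and 8.69 in mature control leaves. Neighbouring stages overlapped, and neither single step passed (differences 0.19 and 0.18, adjusted p = 0.129 and 0.211). It was higher in mature than in proliferating leaves by 0.37 ± 0.11 (adjusted p = 0.00418), a call that was lost without proliferating control replicate 1 (adjusted p = 0.0526, the highest of a range that began at 4.01e-05). Its group means spanned 0.72 on the log2 scale over all 8 groups, the smallest span of the 8 genes.

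Among the genes without a miR319 site, TCP17 had 6.42, 6.80 and 6.76 in proliferating, 5.94, 5.41 and 5.50 in expanding and 6.64, 6.40 and 6.48 in mature control leaves. The expanding arrays lay below all others, and proliferating and mature arrays overlapped. TCP17 was 2.07-fold lower in expanding relative to proliferating leaves (adjusted p = 2.31e-06) and rose by 0.89 ± 0.15 in mature relative to expanding leaves (adjusted p = 4.67e-05). Mature and proliferating leaves differed by -0.15, within the spread between arrays (adjusted p = 0.381).

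TCP5, which shares functions with TCP13 and TCP17 in leaf and petal growth, had 7.55, 7.24 and 7.12 in proliferating, 7.24, 6.64 and 6.86 in expanding and 7.59, 7.54 and 7.54 in mature control leaves. Proliferating and expanding arrays overlapped near 7.24, and only the mature arrays were tightly grouped. The lower level in expanding leaves (-0.39 ± 0.13, adjusted p = 0.0134) lost its call without proliferating control replicate 1, without expanding control replicate 2 or in a fit of the 2 groups alone, with adjusted p between 0.000754 and 0.115 over all alternatives. The rise by 0.64 ± 0.13 in mature relative to expanding leaves passed in every alternative run (adjusted p = 0.00037).

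TCP13, also known as plastid transcription factor PTF1, had 6.41, 6.89 and 6.65 in proliferating, 6.81, 6.64 and 6.81 in expanding and 7.59, 7.62 and 7.48 in mature control leaves. The earlier stages overlapped and all 3 mature arrays stood above them. It rose by 0.81 ± 0.13 in mature relative to expanding leaves (adjusted p = 3.12e-05) and was 1.88-fold higher in mature than in proliferating leaves (adjusted p = 1.96e-06).

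**Figure D2:**
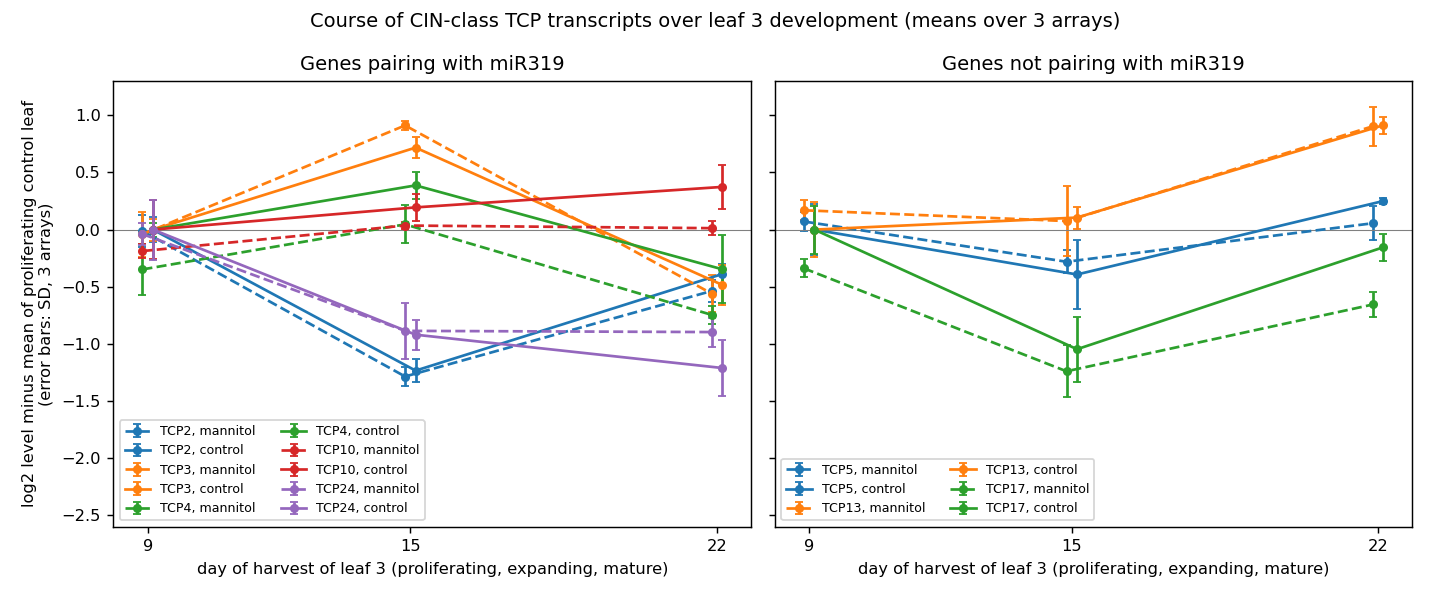
Mean log2 level of each gene in leaf 3 on days 9, 15 and 22, relative to its own mean in proliferating control leaves, for genes with a miR319 site (left) and without one (right). Dashed lines are mannitol and solid lines control, and error bars are SD over 3 arrays. TCP3 and TCP4 peaked on day 15 on both media, and TCP2, TCP5 and TCP17 dipped there.

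The stage differences on mannitol were measured on other arrays than those on control medium. In expanding relative to proliferating leaves 6 of 8 passed there, against 65% of all loci: TCP3 (0.95) and TCP4 (0.39) were higher, and TCP2 (-1.27), TCP17 (-0.90), TCP24 (-0.85) and TCP5 (-0.35) were lower. In mature relative to expanding leaves 6 of 8 passed, against 40.1% of all loci: TCP13 (0.83), TCP2 (0.75), TCP17 (0.58) and TCP5 (0.34) were higher, and TCP3 (-1.47) and TCP4 (-0.79) were lower. In mature relative to proliferating leaves 5 of 8 passed, against 65.6% of all loci: TCP13 (0.74) was higher, and TCP24 (-0.86), TCP2 (-0.52), TCP3 (-0.52) and TCP4 (-0.40) were lower. TCP10, with 0.20 in that comparison, did not pass (adjusted p = 0.111), nor did TCP17 with -0.32 (adjusted p = 0.0737) and TCP5 with -0.02 (adjusted p = 0.926).

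Some of these calls rested on single arrays or on the scaling. The rise of TCP5 in mature relative to expanding mannitol leaves (adjusted p = 0.0467) was lost when any array of these groups except mature mannitol replicate 2 was left out, and TCP5's lower level in expanding relative to proliferating mannitol leaves was lost without proliferating mannitol replicate 3, without expanding mannitol replicate 3, or with either rescaling of the arrays. The rise of TCP4 in expanding relative to proliferating mannitol leaves was lost without proliferating mannitol replicate 1 or expanding mannitol replicate 1, and its lower mature than proliferating level without proliferating mannitol replicate 2 or with centred arrays. Centring moved the median of all loci by 0.10 in expanding relative to proliferating leaves on control medium and by 0.13 on mannitol, and by 0.19 and 0.18 for mature relative to proliferating leaves. The counts of called members relative to that shift were 3 higher and 3 lower for expanding relative to proliferating mannitol leaves (main count 2 and 4), 3 higher and 2 lower for mature relative to proliferating control leaves (main count 2 and 4), and 2 higher and 3 lower for the same stages on mannitol (main count 1 and 4).

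Seedling shoots differed from leaf 3 most in TCP17, TCP3 and TCP24. On control medium TCP17 had 4.94, 4.87 and 5.07 in seedling shoots, below every leaf array, with log2 differences of -1.70 from proliferating, -0.66 from expanding and -1.55 from mature leaves. TCP3 had 8.02, 8.04 and 7.83 in seedling shoots, above the proliferating (difference 0.71) and mature leaves (1.19) and overlapping the expanding ones (-0.01). TCP24 had 7.26, 7.33 and 7.18 in seedling shoots, above the expanding (0.87) and mature leaves (1.16) and overlapping the proliferating ones (-0.05).

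Against proliferating leaves 3 of 8 members passed, with 57.2% of all loci. TCP3 was higher, and TCP5 (-0.65) and TCP17 were lower in seedling shoots. Against expanding leaves 5 of 8 passed, with 32.8% of all loci: TCP2 (1.02) and TCP24 were higher, and TCP17, TCP4 (-0.33) and TCP10 (-0.29) were lower. The calls of TCP4 (adjusted p = 0.042) and TCP10 (adjusted p = 0.0409) there were lost when single arrays were left out, TCP4 for each seedling array and for expanding control replicates 1 and 2, and TCP10 for seedling control replicates 1 and 2 and expanding control replicates 1 and 3. The TCP10 call was also lost in a fit of the 2 groups alone. Against mature leaves 7 of 8 passed, with 51.8% of all loci: TCP3, TCP24 and TCP4 (0.40) were higher, and TCP17, TCP13 (-1.02), TCP5 (-0.90) and TCP10 (-0.47) were lower. The call of TCP4 against mature leaves was lost without mature control replicate 2 or with centred arrays, which moved the median of all loci by -0.13.

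Averaged over the 3 leaf stages, TCP4 fell by 22.2% on mannitol, TCP17 fell by 21.2% and TCP10 fell by 15.1%, as changes of the linear level. No member was higher, and 5 of the 8 did not pass. The 3 calls among 8 members stand beside 9.11% of all loci, and the median difference was -0.04 for the members and -0.03 for all loci. Of all loci called there 57.1% were higher on mannitol, and 39.3% with each array centred on its median, a rescaling that moved the median of all loci by -0.03. These 3 genes were the ones called in each of the alternative settings run for this average. The series asks how prolonged mild osmotic stress acts on leaves at different stages. This average addresses only a change shared by the leaf stages.

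TCP4 had 7.79, 8.23 and 7.94 in proliferating leaves on mannitol, against 8.27, 8.39 and 8.34 on control medium. In expanding leaves it had 8.57, 8.33 and 8.25 on mannitol, against 8.85, 8.69 and 8.62 on control medium. In mature leaves it had 7.59, 7.51 and 7.66 on mannitol, against 8.10, 7.65 and 8.21 on control medium. The groups were apart in proliferating and expanding leaves, and in mature leaves 1 control array, replicate 2, reached into the mannitol range. The difference over the leaf stages was -0.36 ± 0.07 (SE, 95% interval -0.51 to -0.22, adjusted p = 0.00148).

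Seedling shoots gave TCP4 levels of 8.04, 8.06 and 8.08 on mannitol, against 8.46, 8.33 and 8.38 on control medium, again with no overlap. Taken stage by stage the TCP4 difference was -0.33 in seedling shoots, -0.35 in proliferating, -0.34 in expanding and -0.40 in mature leaves. None of these passed alone over all loci, with adjusted p of 0.332, 0.229, 0.104 and 0.0637, although each had an unadjusted p under 0.05. TCP4 was lower at 4 of 4 stages, as were TCP10, TCP17 and TCP2, the last with no mannitol call and only -0.01 in proliferating leaves. The median of all loci was also negative in seedling shoots (-0.014), proliferating (-0.026), expanding (-0.015) and mature leaves (-0.036). The share of all loci lower at every stage was not counted. For TCP4 the test of unequal effects over the leaf stages gave an adjusted p of 0.978.

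TCP17 had 6.25, 6.41 and 6.30 in proliferating leaves on mannitol, against 6.42, 6.80 and 6.76 on control medium. In expanding leaves it had 5.21, 5.66 and 5.40 on mannitol, against 5.94, 5.41 and 5.50 on control medium. In mature leaves it had 6.04, 6.09 and 5.88 on mannitol, against 6.64, 6.40 and 6.48 on control medium. The groups were apart in proliferating and mature leaves and overlapped in expanding leaves. The difference over the leaf stages was -0.34 ± 0.09 (95% interval -0.53 to -0.16, adjusted p = 0.014). The largest single-stage difference, -0.50 in mature leaves, did not pass (adjusted p = 0.0603), nor did -0.31 in seedling shoots, where 1 mannitol array at 4.29 lay below the dim level.

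TCP10 had 8.12, 8.24 and 8.14 in proliferating leaves on mannitol, against 8.09, 8.60 and 8.38 on control medium. In expanding leaves it had 8.41, 8.36 and 8.40 on mannitol, against 8.63, 8.41 and 8.60 on control medium. In mature leaves it had 8.32, 8.35 and 8.44 on mannitol, against 8.94, 8.56 and 8.69 on control medium. The groups overlapped in proliferating leaves, met at 8.41 without overlap in expanding leaves and were apart in mature leaves. The difference over the leaf stages was -0.24 ± 0.06 (95% interval -0.37 to -0.11, adjusted p = 0.0182). By stage it was -0.25 in seedling shoots, -0.19 in proliferating, -0.16 in expanding and -0.36 in mature leaves, the last with an adjusted p of 0.0572.

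The other 5 members had small differences over the leaf stages. TCP2 differed by -0.07 (95% interval -0.19 to 0.05), TCP3 by 0.03 (-0.10 to 0.16), TCP24 by 0.10 (-0.06 to 0.26), TCP13 by 0.04 (-0.12 to 0.20) and TCP5 by -0.004 (-0.16 to 0.15). Their intervals exclude a mean decrease as large as that of TCP4. Single groups that stood apart among them were TCP3 in expanding leaves, with 8.19, 8.12 and 8.19 on mannitol against 7.94, 8.08 and 7.90 on control medium, and TCP5 in mature leaves, with 7.51, 7.21 and 7.37 against 7.59, 7.54 and 7.54. Neither passed over all loci (TCP3 0.19, adjusted p = 0.357, and TCP5 -0.19, adjusted p = 0.447). TCP5 was also apart in seedling shoots, with 6.49, 6.15 and 6.51 on mannitol against 6.68, 6.53 and 6.74 on control medium (-0.27, adjusted p = 0.618). TCP24 had 6.31, 6.56 and 6.39 in mature leaves on mannitol against 6.07, 6.36 and 5.87 on control medium, a difference of 0.31 in the direction opposite to TCP4 that did not pass (adjusted p = 0.196).

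**Figure D3:**
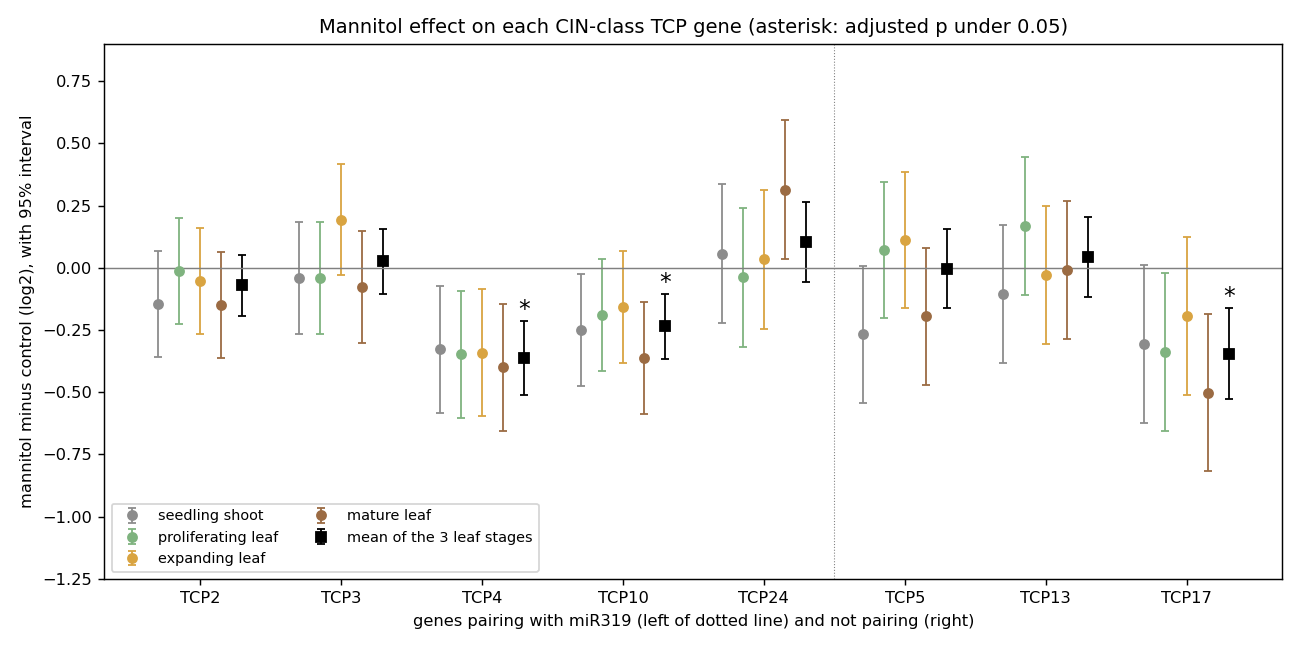
Mannitol minus control (log2, y axis) for each gene (x axis) at each stage and averaged over the 3 leaf stages (black squares), with 95% intervals. Asterisks mark adjusted p under 0.05: the leaf averages of TCP4 (-0.36), TCP10 (-0.24) and TCP17 (-0.34) carry one, and no single stage does.

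At single stages limma called 0 of 8 members, where 1.45% of all loci passed in seedling shoots, 1.81% in proliferating, 7.65% in expanding and 4.83% in mature leaves. An unadjusted p under 0.05 was found for 2 of 8 members in seedling shoots (8.43% of all loci), 2 in proliferating (9.87%), 1 in expanding (18.8%) and 4 in mature leaves (19.3%). Mannitol and control arrays did not overlap for 3 of 8 members in seedling shoots (16.3% of all loci), 2 in proliferating (17.1%), 3 in expanding (20%) and 3 in mature leaves (24.6%). The single member in expanding leaves at an unadjusted p is a smaller share than that of all loci. The mature leaf count depended on the settings: 3 members passed with each array centred on its median (TCP4, TCP10 and TCP17), 2 with a trended robust variance (TCP4 and TCP10), 1 in a fit of the mature arrays alone (TCP17), and 2 (TCP4 and TCP10) without mature control replicate 2.

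A joint test of any mannitol effect over the 4 stages called 3 of 8 members, against 10.3% of all loci: TCP4 (F = 8.30, adjusted p = 0.00625), TCP10 (F = 5.35, adjusted p = 0.0393) and TCP17 (F = 5.34, adjusted p = 0.0396). Only TCP4 passed in each alternative of this joint test. Leaving out 1 of the 24 arrays in turn took away the call of TCP10 in 18 cases and of TCP17 in 13. The fit with the replicate number as a block also took away both calls, so that it called 1 member, TCP4.

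No member passed limma's interaction tests of a different mannitol effect between leaf stages. The tests called 0 of 8 members for expanding minus proliferating leaves (1.3% of all loci passed), 0 for mature minus expanding (3.41%), 0 for mature minus proliferating (2.64%) and 0 for unequal effects over the 3 leaf stages (4.71%). None of the members had an unadjusted p under 0.05. Of all 20777 loci 2390, 3398, 2737 and 3619 had one in these tests, in the same order. The differences between stage effects ranged from -0.31 (TCP17, mature minus expanding) to 0.35 (TCP24, mature minus proliferating). The precision is limited by 3 arrays a group.

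The marker genes were also counted under mannitol. Averaged over the leaf stages, 1 of 5 cell division markers was higher (CDKB2;1, 0.29) and 1 of 4 markers of vascular tissue, trichomes and guard cells was lower (the guard cell factor MYB60, -0.36). limma called 0 of 2 photosynthesis, 0 of 4 ageing, 0 of 4 shoot meristem and 0 of 4 root markers, where 9.11% of all loci passed. An unadjusted p under 0.05 was found for 1 ageing and 1 shoot meristem marker and for 0 photosynthesis and 0 root markers. Of all 20777 loci 4653 had one. Markers were also called at single stages, where 1.45% of all loci passed in seedling shoots, 7.65% in expanding and 4.83% in mature leaves. No marker was called in proliferating leaves (1.81% of all loci). In seedling shoots the guard cell genes MYB60 (-0.90) and KAT1 (-0.77) were lower on mannitol. In expanding leaves KAT1 (-1.003, adjusted p = 6.63e-05) and MYB60 (-0.53) were lower and the cell division markers CDKB2;1 (0.55) and KN (0.48) higher, of which MYB60 and KN lost their calls when single arrays were left out. In mature leaves the ageing marker SEN1 was lower (-1.09, adjusted p = 0.0172) and the cell division marker PCNA1 higher (0.42, adjusted p = 0.0425). The SEN1 call was lost without mature control replicate 3 or mature mannitol replicate 2. That of PCNA1 was lost in 9 of 12 alternatives: either rescaling of the arrays, a fit of the 2 groups alone and omission of any array of these groups. The log2 of the summed ageing markers ran from 7.30 to 7.84 in expanding leaves on mannitol against 6.74 to 7.13 on control medium, and from 9.91 to 10.2 in mature leaves on mannitol against 10.5 to 10.9 on control medium. The log2 of the summed cell division markers ran from 12.2 to 12.5 in proliferating leaves on mannitol against 12.4 to 12.6 on control medium, from 9.09 to 9.20 in expanding leaves on mannitol against 8.67 to 8.81, and from 7.35 to 7.37 in mature leaves on mannitol against 7.07 to 7.21. The part of cell composition in the lower levels of TCP4, TCP10 and TCP17 was not tested.

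Members with and without the miR319 site were found among the genes that moved. With mannitol, 2 of the 5 genes with the site (TCP4 and TCP10) and 1 of the 3 without (TCP17) passed over the leaf stages. Across development the dip in expanding leaves was found in TCP2, which has the site, and in TCP5 and TCP17, which lack it. The profile most like another member's was that of TCP5 and TCP17, with a Pearson r of 0.89 over the 24 arrays and 0.94 over the 8 group means. TCP5 ranked 49 among all loci by likeness to TCP17. TCP3 and TCP4 followed with r = 0.73 over the arrays and 0.76 over the group means, where TCP4 ranked 534 among all loci by likeness to TCP3. Opposite profiles were those of TCP3 and TCP13 (r = -0.77 over the arrays) and of TCP3 and TCP5 (-0.76). These values describe arrays that share 4 tissues and 2 media, and most of the variation behind them lies between stages.

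**Figure D4:**
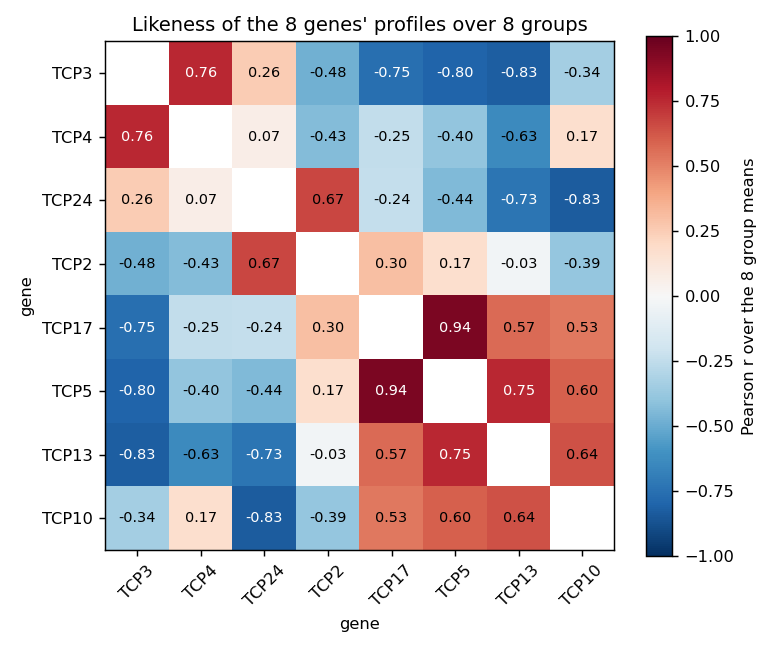
Pearson correlation between the profiles of each pair of genes over the 8 group means (colour and printed value), with genes on both axes. The TCP5 and TCP17 cell (0.94) and the TCP3 and TCP4 cell (0.76) are the strongest positive ones, and TCP10 with TCP24 and TCP3 with TCP13 (both -0.83) the strongest negative ones.

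The loci of the whole table whose profiles over the 24 arrays were most like each member's were found by Pearson r. For TCP3 they were AT4G12060 (r = 0.98), PRPS20 (0.97), a plastid ribosomal protein gene, and AT5G35740 (0.97). For TCP4 they were AT1G10020 (0.93), AT2G31170 (0.88) and PSRP5 (0.87), a plastid ribosomal protein gene. For TCP2 the 3 loci were AT1G65220 (0.94), the chromatin protein gene HMGB3 (0.94) and AT1G57540 (0.93), and for TCP24 AT2G26200 (0.96), AT5G65760 (0.95) and UXS5 (0.95), a UDP-xylose synthase gene. For TCP17 they were AT5G42220 (0.94), BT5 (0.93) and FP3 (0.93), for TCP5 AT3G54680 (0.93), AT3G57810 (0.93) and AT1G04300 (0.93), and for TCP13 AT5G15860 (0.96), AT4G22820 (0.94) and AT3G16940 (0.94). TCP10 had the weakest nearest locus, AT3G10400 (0.89), followed by ML4 (0.87) and AT3G01890 (0.87).

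Of 8 genes reported as targets of CIN-class proteins, 5 rose and 1 fell in expanding relative to proliferating control leaves, a step in which 60.6% of all loci passed, with a list median of 1.51 against 0.04 for all loci. LOX2, a lipoxygenase of jasmonate synthesis and a target of TCP4, rose by 3.57 ± 0.29, the auxin response repressor IAA3 by 3.23 ± 0.13, the auxin-induced SAUR65 by 2.77 ± 0.20 and the cell cycle inhibitor KRP1 by 2.29 ± 0.12. AS1, which keeps KNOX genes off in leaves, fell by 1.17, and YUC5 and ARR16 did not pass. In mature relative to expanding control leaves 4 of 8 passed, against 40.4% of all loci: SAUR65 rose further by 1.06, while IAA3 (-0.57), ARR16 (-0.69) and AS1 (-0.42) fell. The call of ARR16 (adjusted p = 0.0114) was lost without expanding control replicate 3 or mature control replicate 1 or 3. In the same steps TCP3 and TCP4 rose and then fell, and TCP2, TCP5 and TCP17 fell and then rose.

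Under mannitol 1 of the 8 targets, WRKY53, was called in seedling shoots (1.45% of all loci) and in proliferating leaves (1.81%). In expanding leaves 4 were called (WRKY53 higher and 3 others lower, against 7.65% of all loci), and in mature leaves 0 (4.83%). limma gave 1 of the 8 an unadjusted p under 0.05 in mature leaves, against 19.3% of all loci. WRKY53, a regulator of leaf ageing kept in the list as a reported target, averaged 6.81 ± 0.16 on mannitol and 5.79 ± 0.39 on control medium in seedling shoots (SD, n = 3 each), 6.64 ± 0.24 and 5.30 ± 0.51 in proliferating, 7.54 ± 0.45 and 6.02 ± 0.17 in expanding, and 6.31 ± 0.13 and 6.28 ± 0.21 in mature leaves. It rose at the first 3 of these stages (limma adjusted p = 0.0183, 0.000996 and 9e-05) and differed by 0.04 in mature leaves (adjusted p = 0.954). Its seedling call was lost without seedling control replicate 2 or 3 or seedling mannitol replicate 2 or 3. In expanding leaves KRP1 (-0.54 ± 0.12), SAUR65 (-0.86 ± 0.20) and IAA3 (-0.49 ± 0.13) fell. The call of IAA3 was lost without expanding control replicate 1 or 3, without expanding mannitol replicate 2 or 3 or in a fit of the 2 groups alone, and that of SAUR65 without expanding control replicate 3 or expanding mannitol replicate 1. Averaged over the leaf stages 1 of 8 targets rose (WRKY53, 0.97), 2 fell (SAUR65, -0.48, and KRP1, -0.31) and 5 did not pass, where 9.11% of all loci passed, and LOX2 differed by -0.20 without passing (adjusted p = 0.532).

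**Figure D5:**
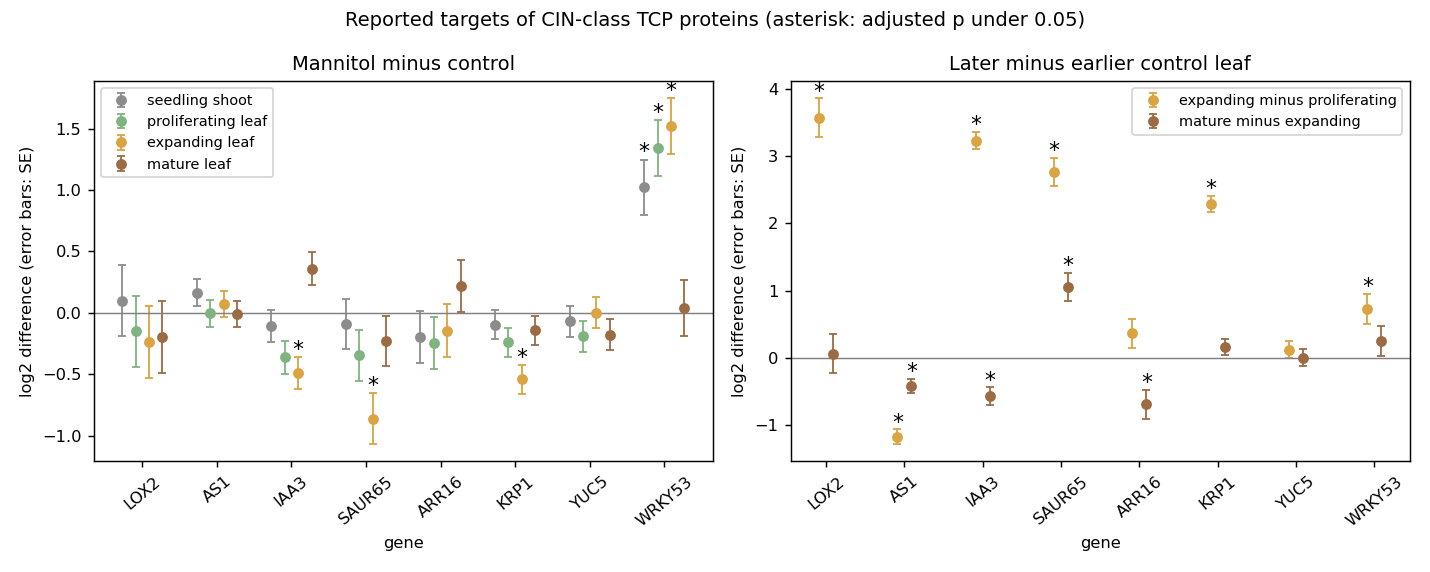
Log2 differences with SE for 8 reported targets of CIN-class proteins (x axis), mannitol minus control at each stage on the left and later minus earlier control leaves on the right. Asterisks mark adjusted p under 0.05. WRKY53 rose on mannitol at all stages but the mature leaf, and LOX2, IAA3, SAUR65 and KRP1 rose by 2.29 to 3.57 as control leaves entered expansion.

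Other lists tied to the CIN-class genes were counted in the same contrasts, where 60.6% of all loci passed in expanding relative to proliferating control leaves and 9.11% over the leaf stages under mannitol. Of the GRF and GIF growth regulators, which CIN-class proteins hold back in leaves partly through miR396, 11 of 11 measured members fell in expanding relative to proliferating control leaves, with a median of -1.43 and, among the strongest, GRF3 at -4.12, GIF1 at -4.68 and GRF1 at -4.25. Over the leaf stages 1 of the 11 passed under mannitol, GIF3 (0.28, adjusted p = 0.0117), a share near that of all loci. Of the NGATHA factors, which act beside CIN-class proteins in ending leaf growth, NGA1 was lower on mannitol over the leaf stages (-0.28, adjusted p = 0.002) and NGA2, NGA3 and NGA4 did not pass. Of 10 measured genes of jasmonate synthesis 4 rose over the leaf stages, LOX4 by 0.51, AOC4 by 0.37, OPR3 by 0.37 and ACX1 by 0.20, the last lost in 11 of 24 alternatives. limma called none of 8 boundary and KNOX genes, 7 genes of protein partners, 5 genes of the microRNA machinery or 4 GAMYB genes. This held at each single stage and over the leaf stages. At single stages 1.45% of all loci passed in seedling shoots, 1.81% in proliferating, 7.65% in expanding and 4.83% in mature leaves. Over the leaf stages 1 boundary or KNOX gene, 1 partner gene, 1 microRNA machinery gene and 0 GAMYB genes had an unadjusted p under 0.05. Of all 20777 loci 4653 had one.

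Among the other TCP genes, 9 of 13 class I members were measured. Class I proteins bind similar DNA sites, and several promote growth. Over the leaf stages 1 of the 9 passed under mannitol, TCP23 (-0.24, adjusted p = 0.0303), a share near the 9.11% of all loci. The median difference was -0.05 for the class I list and -0.03 for all loci. The call of TCP23 was lost in 8 of 24 alternatives. At each single stage limma called 0 of the 9. An unadjusted p under 0.05 was found for 0 in seedling shoots (8.43% of all loci), 1 in proliferating (9.87%), 1 in expanding (18.8%) and 1 in mature leaves (19.3%).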

How the data were processed

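The series' authors deposited 1 log2 expression value per locus and array, made with RMA per the submitters' processing notes. Not given in the sources used here are the RMA version, how probes were assigned to loci, and whether the arrays were summarised together. The log2 scale was inferred from the range of values (2.52 to 14.4), and no further normalization was applied. Groups came from the sample titles and the stress field, because the treatment-protocol field names mannitol for every sample. Symbols came from a reference gene table (assembly TAIR10.1), which named 20508 of the 20777 loci.

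Means of the 8 groups were fitted on all 24 arrays with limma 3.58.1 in R 4.3.3 (lmFit and eBayes), tests were two-sided, and p-values were Benjamini-Hochberg adjusted over all loci within each contrast. The script was tested on simulated data. The members and all gene lists were chosen with earlier results of these data known, so no list is independent support. Named genes are all 8 members, up to 4 called genes with the smallest p in each list (every member of lists of 5 or fewer), and the 3 loci most correlated with each member. Alternatives were 2 rescalings, a replicate block, a filter on dim loci (4831 loci, no member among them), a trended robust variance, fits of the contrast's own groups and omission of each array. Those for the other lists were added after seeing the data.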

Additional observations from a re-analysis of the deposited data

Results flagged for a closer look

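No CIN-class TCP gene passed limma's test of a different mannitol effect between leaf stages. Of the 94 measured genes of all lists, the 8 members included, 6 passed it for at least 1 pair of stages. Of all loci 1.3% passed for expanding minus proliferating leaves, 3.41% for mature minus expanding and 2.64% for mature minus proliferating. These differences of effects are given as values, and no alternative settings are given for them. The mannitol effect on WRKY53 was smaller in mature than in expanding leaves (difference -1.48, adjusted p = 0.0105) and than in proliferating leaves (-1.30, adjusted p = 0.0278). That on IAA3 was higher in mature than in expanding leaves (0.85, adjusted p = 0.0114) and than in proliferating leaves (0.72, adjusted p = 0.0357). In mature relative to expanding leaves the effect was lower for GIF2 (-0.47, adjusted p = 0.0444), NAP (-1.08, adjusted p = 0.0292) and SEN1 (-1.40, adjusted p = 0.0368). The effect on the guard cell channel gene KAT1 was lower in expanding than in proliferating leaves (-1.02, adjusted p = 0.0122) and higher in mature than in expanding leaves (1.20, adjusted p = 0.0017).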

How the results depend on the processing

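Of 152 member results 56 were called, 43 of them in every alternative run, and none of the called results turned direction, while some uncalled ones near 0 changed sign. The others lost their call in at least 1 alternative, and 12 of the 96 uncalled results gained it in some. TCP4, TCP10 and TCP17 kept their lower leaf average in all alternatives. The count for mature leaves under mannitol, 0 in the fit as reported, was 3 with centred arrays, 2 with trended robust variance, 1 in a fit of its own groups and 0 to 2 when single arrays were left out. The joint test over 4 stages called 1 member with the replicate block and 1 to 3 when single arrays were left out, against 3. It has no fit of its own groups, since it uses all arrays. Seedling shoots against expanding leaves gave 3 to 5 calls as arrays were left out, against 5. The replicate block changed no other count by more than 1.5 times. Same-numbered mannitol and control arrays deviated together with correlations of 0.0593 to 0.429, over 0.1 in 11 of 12 pairs, which includes every pair outside mature leaves. As a hint from the data and not the design, each of the 12 mannitol arrays' deviations matched best the control array of its own number within its stage. Of 34 mannitol calls in the other lists 19 held in every alternative, and of 88 stage calls 72. The causes of these changes were not tested. With 3 arrays a group, no member difference under mannitol at a single stage reached the threshold over all loci in the fit as reported. The largest were those of TCP17 (-0.50), TCP4 (-0.40) and TCP10 (-0.36) in mature leaves.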

Other observations

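In expanding relative to proliferating control leaves, where 60.6% of all loci passed, 4 of 5 genes of the microRNA machinery fell: AGO1, the slicer that miR319 guides, by a log2 difference of -1.02, the methyltransferase HEN1 by -0.95, SE by -0.86 and HYL1 by -0.41, while DCL1 did not pass. Of 8 boundary and KNOX genes 3 fell, CUC3 (-1.42), KNAT1 (-0.71) and CUC2 (-0.65), and 5 did not pass. The protein partner gene AS2 was lower (-1.91) and the chromatin remodeller gene BRM higher (0.85), with 6 of 7 measured partner genes passing, of which TPR2 lost its call in 9 of 12 alternatives. These counts are given as values beside the share of all loci. Class I TCP genes also diverged in this step: TCP21 (1.87) and TCP23 (1.16) rose, and TCP19 (-1.49) and TCP11 (-0.58) fell, in all 2 higher and 5 lower of 9.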
